A study of Mus musculus with 8 samples.

Results

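The genes described here encode ABC transporters, and they were chosen by symbol: every mouse gene named Abca, Abcb, Abcc, Abcd, Abcf or Abcg followed by a number. The rule found 47 genes among the 24011 named genes of the array table, 16 of subfamily A, 9 of B, 10 of C, 3 of D, 3 of F and 6 of G. RNA came from adult C57Bl6 mouse bone marrow, with no treatment or engineered allele named in the labels. The 4 Lin+ arrays hold cells sorted for lineage antigens found on maturing blood cells, and the 4 HSC-enriched arrays a sort that concentrates haematopoietic stem cells (HSCs). The sample labels give the HSC-enriched sort as LSK (lineage-negative, Sca-1-positive, Kit-positive), CD105-positive and CD48-negative, whereas the design text has CD150 in place of CD105. Values are log2 levels after RMA, a method that corrects background, equalises arrays and summarises the probes of each gene.

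ABC transporters bind and hydrolyse ATP through a conserved nucleotide-binding domain, and most use that energy to move lipids, drugs, peptides, haem precursors or conjugated metabolites across membranes. Abcg2 (breast cancer resistance protein) and the P-glycoproteins Abcb1a and Abcb1b expel fluorescent dyes. Dye efflux of this kind marks the side population, a classical enrichment for HSCs in mouse marrow. Members of subfamily F have no membrane domain and act on ribosomes and translation.

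Marker levels separated the sorts, with a limit for HSC-enriched replicates 3 and 4, which carried more neutrophil transcripts than the other HSC-enriched arrays. Of 12 listed stem cell genes 11 were measured, and their mean level was 9.16 to 9.31 on HSC-enriched arrays against 5.43 to 5.64 on Lin+ arrays. All 11 rose, but Kit, Eng (CD105) and Slamf1 (CD150) among them encode antigens that the labels or design text name for the sort. The list was also chosen with earlier results of these data known, so it is no independent check. Neutrophil genes (10 measured) averaged 6.92, 6.87, 9.65 and 9.39 on HSC-enriched replicates 1 to 4, so replicates 3 and 4 stood apart, against 11.85 to 12.09 on Lin+ arrays. B cell genes (6 measured) averaged 6.44 on HSC-enriched replicate 3 against 4.87 to 5.10 on the other HSC-enriched arrays, and 9.63 to 10.31 on Lin+ arrays. Erythroid genes (6 measured) averaged 4.74 to 5.92 on HSC-enriched arrays, and 8.27 on Lin+ replicate 1 against 8.90 to 9.10 on the other Lin+ arrays. Monocyte and macrophage genes (8 measured) averaged 4.92 to 5.43 against 7.68 to 8.29, T and NK cell genes (7 measured) 4.72 to 5.04 against 7.68 to 7.90, and mast cell, basophil and eosinophil genes (6 measured) 4.61 to 5.35 against 7.87 to 8.47. Megakaryocyte genes (7 measured) averaged 7.08 to 7.65 on HSC-enriched arrays against 5.73 to 6.45 on Lin+ arrays. Of these, 5 rose past that adjusted p, and Gp1bb and Ppbp did not. Endothelial genes (7 measured) averaged 5.90 to 6.59 against 4.91 to 5.17, but only 2 rose past it (Emcn and Tie1) and 5 did not. A background guide was set at 5.08, the 95th percentile of the group means of 1091 olfactory receptor genes. Since the labels do not tie the arrays to separate animals, the tests see only the scatter among these samples, possibly a technical one.

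Transporter expression was compared between the stem cell sort and lineage-positive marrow. Of the 47 ABC genes, 21 passed (27.8% of all genes did): 11 rose and 10 fell in HSC-enriched cells at a Benjamini-Hochberg adjusted p of 0.05 from limma, and 26 did not pass. That is 23.4% of the genes higher, beside 15.5% of all genes, and 21.3% lower, beside 12.4% of all genes. A low-value filter kept each gene whose level exceeded the overall median on any 4 arrays, whichever group they came from. In that fit 7 of 26 ABC genes rose (26.9%, beside 27.8% of the genes then tested). A further 9 fell (34.6%, beside 21.4%), so in that fit the share that rose was not above that of other genes. With the 40th percentile in place of the median, 29 ABC genes were kept. Of those, 31.0% rose (beside 24.8%) and 31.0% fell (beside 19.1%). Abca13, Abcd2 and Abca9 passed both filters through Lin+ arrays, with HSC-enriched means of 3.73, 3.92 and 3.88. Abcb1b and Abcg3, with Lin+ means of 4.98 and 5.15, passed the filter at the median through HSC-enriched arrays. Abca5, with a Lin+ mean of 4.08, did so at the 40th percentile. These shares are therefore not those of genes expressed in both groups. At 2-fold or more, 5 rose (Abcb1b, Abcg3, Abca2, Abcc1 and Abcg2) and 5 fell (Abca13, Abcd2, Abca9, Abcb10 and Abcg4), where 4.8% and 6.08% of all genes did so. The median difference was 0.02 on the log2 scale, the same as over all genes (0.02). The 4 arrays of each group did not overlap for 10 genes that were higher and 10 that were lower in HSC-enriched cells, beside 15.9% and 13% of all genes (28.9% in either direction). Without HSC-enriched replicates 3 and 4, 9 genes rose and 10 fell. In these bulk samples, fewer cells of a type and less RNA per cell cannot be told apart. For 20 of the 47 genes both group means lay under the background guide (42.6%, beside 43.0% of all genes), and their values are described as near background.

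**Figure D1:**
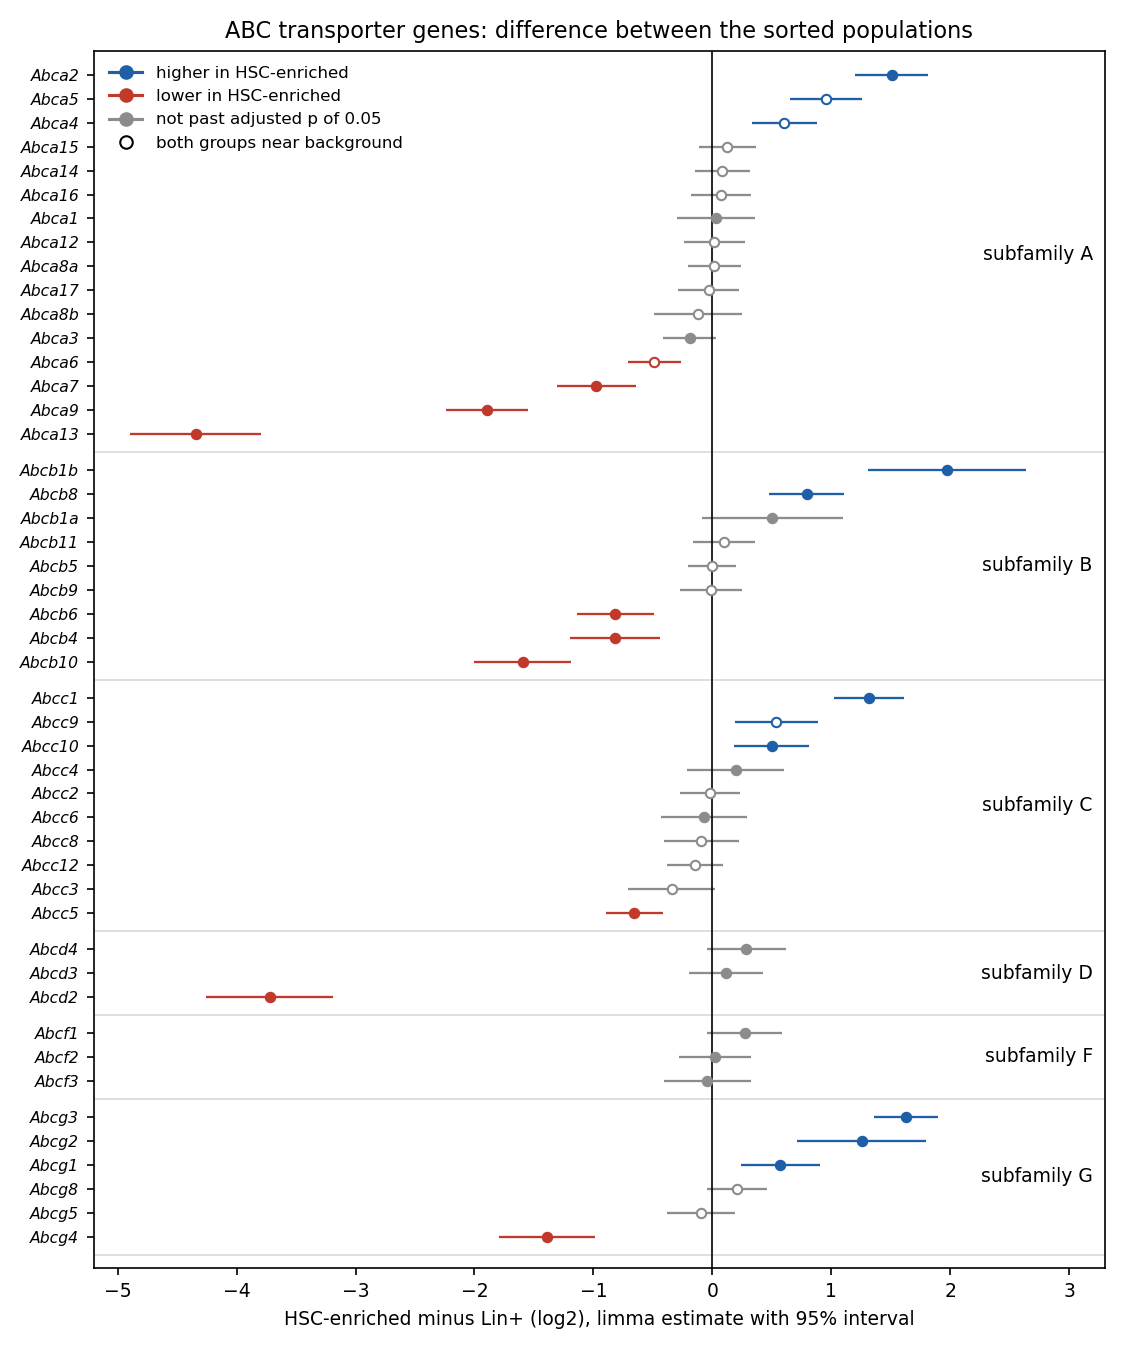
Difference between HSC-enriched and Lin+ cells for all 47 ABC genes, by subfamily, as the limma estimate on the log2 scale with its 95% interval (4 arrays per group). The 11 genes that rose lie between 0.50 (Abcc10) and 1.97 (Abcb1b), and the 10 that fell reach -4.35 (Abca13). Open circles mark genes near background in both groups.

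The best known dye pump, Abcg2, was higher in the stem cell population. Its log2 level was 6.35, 7.51, 7.11 and 7.61 on Lin+ replicates 1 to 4 and 8.50, 8.41, 8.54 and 8.16 on HSC-enriched replicates 1 to 4. All HSC-enriched arrays lay above all Lin+ arrays, and Lin+ replicate 1 was the lowest. Among the Lin+ arrays that replicate had the lowest mean of every marker list but that of B cells, not of erythroid genes alone. The means were 8.40 ± 0.17 and 7.15 ± 0.57 (SD, n = 4), a 2.39-fold difference (adjusted p = 0.00297). Without Lin+ replicate 1 the log2 difference was 0.99, against 1.25 (95% interval 0.71 to 1.80) with it; the part of erythroid transcripts in the Lin+ level was not tested. The Lin+ mean was itself above the background guide.

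Of the P-glycoprotein genes, Abcb1b rose and Abcb1a did not pass. Abcb1b was at 4.92, 5.10, 4.18 and 5.71 on Lin+ arrays and at 7.28, 6.86, 7.25 and 6.43 on HSC-enriched arrays, and the groups did not overlap. This was the largest rise of the family, 3.93-fold (6.95 ± 0.40 against 4.98 ± 0.63, adjusted p = 0.000593), from a Lin+ mean near background. Measured against the guide in place of the Lin+ arrays under it, the difference was 3.27-fold. Abcb1a was at 5.92, 5.06, 5.46 and 4.81 on Lin+ arrays and at 6.21, 5.96, 5.19 and 5.91 on HSC-enriched arrays. Those groups overlapped, and the log2 difference was 0.50 with a 95% interval of -0.09 to 1.1 (adjusted p = 0.215). The change of Abcb1b exceeded that of Abcb1a by 1.47 on the log2 scale, which did not pass an exact two-sided permutation test over arrays (p = 0.0571, with 0.0286 the smallest p that 4 against 4 arrays allow). It did without Lin+ replicate 4 (1.88, exact p = 0.0286, the smallest possible with that array left out). That array had the highest Abcb1b and the lowest Abcb1a level of the Lin+ arrays. The difference passed in 1 of 17 alternatives, but several of these could not change the outcome. Other variance estimates, array weights, a replicate block, centring, filters and probe set means left the tested values of this difference unchanged. Without HSC-enriched replicates 3 and 4, too few splits of the arrays remained for the test to pass. Both genes are close paralogs, and probe sequences were not used here.

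**Figure D2:**
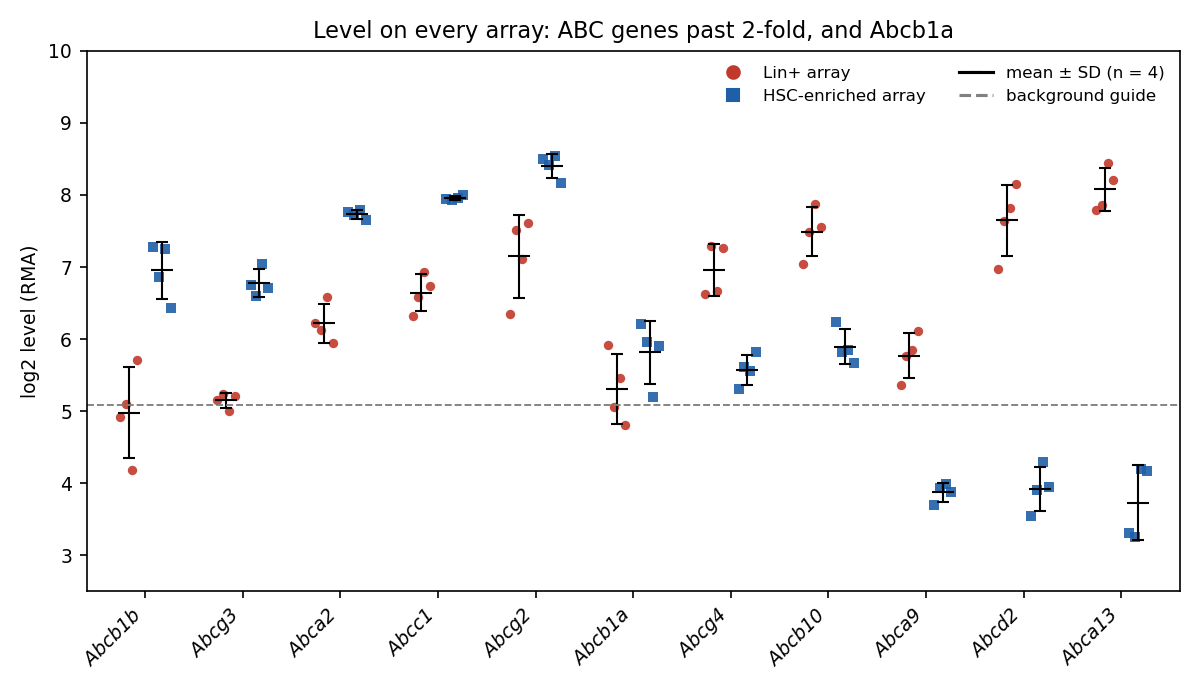
Log2 level (RMA) on each array for the 10 ABC genes past 2-fold and for Abcb1a. Circles are Lin+ arrays, squares HSC-enriched arrays, in replicate order from left to right, bars the mean and SD of 4 arrays, and the dashed line the background guide at 5.08. The groups separate for every gene shown except Abcb1a.

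Abcb1a, Abcb1b and Abcb4 are neighbours on chromosome 5 in the RefSeq gene order. Their outcomes differed: Abcb1a did not pass, Abcb1b rose and Abcb4 fell. Abcb4, which encodes the transporter that moves phosphatidylcholine into bile, fell from 6.91 ± 0.36 to 6.09 ± 0.10, or 1.76-fold (adjusted p = 0.00423). It was at 6.46, 7.06, 6.81 and 7.32 on Lin+ arrays and at 6.13, 6.00, 6.03 and 6.22 on HSC-enriched arrays, without overlap.

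The start-site windows of these 3 neighbours are shown because they are unlike in sequence as well as in expression. RefSeq (GRCm38.p6) gave windows from 250 bases before to 50 after a transcription start for 37 of the 47 genes, 44 windows in all. They are written 5′ to 3′ in the direction of transcription, with capitals marking each CpG (the letters CG). The windows are Abcb1a at chr5:8566841-8567140, Abcb1b at chr5:8797897-8798196 and Abcb4 at chr5:8893471-8893770, all on the plus strand.
Abcb1a: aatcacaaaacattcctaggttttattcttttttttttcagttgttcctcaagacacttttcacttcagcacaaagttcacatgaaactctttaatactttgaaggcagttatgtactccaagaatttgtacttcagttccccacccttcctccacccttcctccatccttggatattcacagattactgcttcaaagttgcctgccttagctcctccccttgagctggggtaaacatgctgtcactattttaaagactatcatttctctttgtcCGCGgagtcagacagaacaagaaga
Abcb1b: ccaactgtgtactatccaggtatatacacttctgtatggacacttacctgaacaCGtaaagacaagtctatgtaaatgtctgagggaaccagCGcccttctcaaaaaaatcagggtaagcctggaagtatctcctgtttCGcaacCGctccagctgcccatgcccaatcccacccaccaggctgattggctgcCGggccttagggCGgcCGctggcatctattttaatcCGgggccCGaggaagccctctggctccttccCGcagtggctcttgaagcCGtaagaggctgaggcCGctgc
Abcb4: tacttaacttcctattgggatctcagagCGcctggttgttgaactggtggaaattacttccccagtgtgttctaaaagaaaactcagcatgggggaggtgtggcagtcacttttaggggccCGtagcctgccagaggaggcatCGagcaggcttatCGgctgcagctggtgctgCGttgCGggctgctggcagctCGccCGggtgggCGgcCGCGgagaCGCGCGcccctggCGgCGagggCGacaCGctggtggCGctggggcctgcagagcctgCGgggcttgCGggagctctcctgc
They held 2, 12 and 21 CpGs, where the median over all 32851 windows of the table was 7. The window of the gene that did not pass had the fewest, and those of the gene that rose and the gene that fell were both above that median.

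Abcg2 has 3 annotated starts, at chr6:58584283-58584582, chr6:58596422-58596721 and chr6:58640296-58640595 on the plus strand. The table gives 1 value for the gene, so which start the transcripts used was not measured. The 3 windows are shown because they differ from CpG-poor to CpG-rich.
Abcg2 start 1: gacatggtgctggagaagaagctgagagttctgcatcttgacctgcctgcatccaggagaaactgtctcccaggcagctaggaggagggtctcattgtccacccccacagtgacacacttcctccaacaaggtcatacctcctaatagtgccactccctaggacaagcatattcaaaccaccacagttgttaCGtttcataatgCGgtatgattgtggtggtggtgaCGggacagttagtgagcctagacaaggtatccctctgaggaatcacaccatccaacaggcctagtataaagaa
Abcg2 start 2: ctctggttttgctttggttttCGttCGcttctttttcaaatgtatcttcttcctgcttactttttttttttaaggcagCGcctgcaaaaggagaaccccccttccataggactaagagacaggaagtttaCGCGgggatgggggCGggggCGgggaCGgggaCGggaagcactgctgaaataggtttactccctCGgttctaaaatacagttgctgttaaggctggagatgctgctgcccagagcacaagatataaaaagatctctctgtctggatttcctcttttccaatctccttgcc
Abcg2 start 3: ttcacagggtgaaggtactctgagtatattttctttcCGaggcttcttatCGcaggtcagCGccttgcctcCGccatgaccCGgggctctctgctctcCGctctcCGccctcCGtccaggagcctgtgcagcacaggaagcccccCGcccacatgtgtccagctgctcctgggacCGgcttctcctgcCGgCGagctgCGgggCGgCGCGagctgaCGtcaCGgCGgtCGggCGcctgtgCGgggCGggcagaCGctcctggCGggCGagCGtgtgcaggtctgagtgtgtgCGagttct
They held 3, 10 and 28 CpGs. Over the first window of each gene, the 17 genes near background in both groups had a median of 9 CpGs (range 1 to 40) and the other 20 genes a median of 20.5 (range 2 to 45), so the ranges overlapped widely.

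In the rest of subfamily G, Abcg3 and Abcg1 rose and Abcg4 fell. Abcg3, a rodent relative of Abcg2, was at 5.15, 5.23, 5.00 and 5.21 on Lin+ arrays and at 6.75, 6.59, 7.05 and 6.71 on HSC-enriched arrays. No arrays overlapped, and the difference was 3.09-fold (6.78 ± 0.19 against 5.15 ± 0.11, adjusted p = 4.60e-06), with the Lin+ level close to the guide. Abcg1 and Abcg4 both export sterols to lipoprotein particles, and they moved in opposite directions. Abcg1 rose 1.49-fold, from 7.60 ± 0.13 to 8.18 ± 0.29 (adjusted p = 0.0146). Abcg4 was at 6.63, 7.29, 6.67 and 7.26 on Lin+ arrays and at 5.31, 5.61, 5.56 and 5.82 on HSC-enriched arrays, again without overlap. It fell 2.61-fold (adjusted p = 0.000218). Abcg5 and Abcg8, whose products form the sterol pump of liver and gut, were near background in both groups and did not pass (-0.10 and 0.21).

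Subfamily A, whose members mostly move lipids, held the largest fall and a 2-fold rise. Abca13, the gene of a very large transporter, was at 7.80, 7.86, 8.44 and 8.20 on Lin+ arrays and at 3.31, 3.25, 4.19 and 4.16 on HSC-enriched arrays. The groups were far apart, and HSC-enriched replicates 3 and 4, which carried more neutrophil transcripts, lay above replicates 1 and 2. The log2 difference was -4.35 ± 0.25 (SE), or 20.3-fold (adjusted p = 9.11e-07), and 7.98-fold with the HSC-enriched arrays set at the guide, under which all of them lay. Without replicates 3 and 4 the difference was -4.79. The part of neutrophil transcripts in the HSC-enriched level was not tested.

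Abca2, which encodes a lipid transporter of endosomes and lysosomes, rose. It was at 6.22, 6.13, 6.59 and 5.94 on Lin+ arrays and at 7.77, 7.72, 7.78 and 7.65 on HSC-enriched arrays, without overlap and with HSC-enriched arrays close together. The difference was 2.85-fold (7.73 ± 0.06 against 6.22 ± 0.27, adjusted p = 1.74e-05). The cholesterol exporter gene Abca1 did not pass, at 6.31 ± 0.23 against 6.28 ± 0.21 (95% interval of the log2 difference -0.29 to 0.36). Abca7, a relative of Abca1 linked to phagocytosis and lipid handling, fell 1.96-fold, from 7.28 ± 0.17 to 6.30 ± 0.27 (adjusted p = 0.000600). Abca3, the lipid transporter of surfactant storage in the lung, did not pass (-0.19).

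A row of 5 subfamily A genes, Abca8b, Abca8a, Abca9, Abca6 and Abca5, lies on chromosome 11. Abca9 was at 5.36, 5.76, 5.84 and 6.11 on Lin+ arrays and at 3.70, 3.94, 3.99 and 3.87 on HSC-enriched arrays. It fell 3.72-fold (adjusted p = 8.83e-06), with every HSC-enriched array under the guide and a fold of 1.61 against the guide itself. Abca6 fell by 0.49 and Abca5 rose by 0.96 on the log2 scale (adjusted p = 0.00399 and 0.000366), both within values near background, and Abca8a (0.02) and Abca8b (-0.12) did not pass. The last gene of the row rose and the pair beside it fell. The windows of Abca9 (chr11:110168104-110168403) and Abca5 (chr11:110337667-110337966), both on the minus strand, are shown as the members of the row with the largest fall and the only rise.
Abca9: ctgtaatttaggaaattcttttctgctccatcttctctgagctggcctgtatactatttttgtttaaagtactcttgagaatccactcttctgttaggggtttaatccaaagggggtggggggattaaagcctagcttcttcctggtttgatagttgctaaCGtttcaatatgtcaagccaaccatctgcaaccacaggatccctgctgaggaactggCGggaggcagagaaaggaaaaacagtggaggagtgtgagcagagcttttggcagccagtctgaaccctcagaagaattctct
Abca5: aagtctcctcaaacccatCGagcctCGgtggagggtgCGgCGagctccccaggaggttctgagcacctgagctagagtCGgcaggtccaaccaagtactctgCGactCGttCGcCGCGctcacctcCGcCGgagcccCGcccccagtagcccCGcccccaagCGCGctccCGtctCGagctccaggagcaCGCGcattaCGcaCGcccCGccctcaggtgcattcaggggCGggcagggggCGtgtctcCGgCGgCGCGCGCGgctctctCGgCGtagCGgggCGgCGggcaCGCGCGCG
They held 2 and 40 CpGs, the former below and the latter above the median of all windows.

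**Figure D3:**
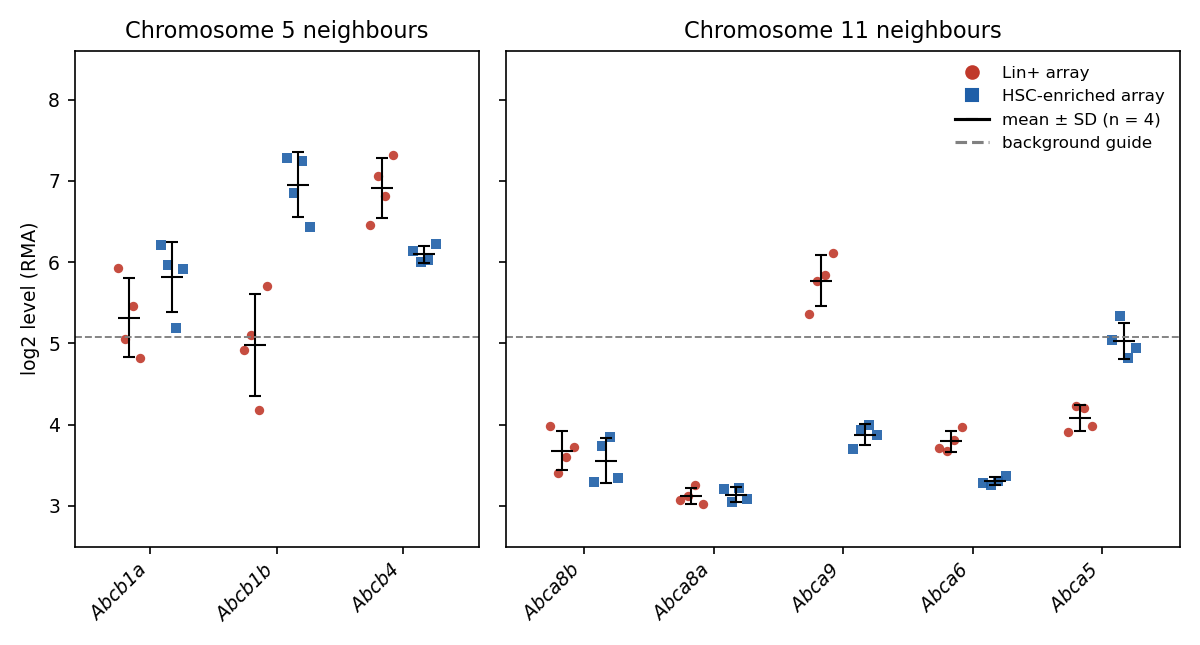
Log2 level (RMA) on each array for 3 neighbouring genes of chromosome 5 and 5 of chromosome 11, in RefSeq gene order. Circles are Lin+ arrays, squares HSC-enriched arrays, bars the mean and SD of 4 arrays, and the dashed line the background guide at 5.08. Abcb1b and Abca5 are higher and Abcb4, Abca9 and Abca6 lower in HSC-enriched cells, while the arrays of Abcb1a, Abca8b and Abca8a overlap.

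The other A genes lay near background. Abca4, the retinal transporter gene, rose by 0.61 there (adjusted p = 0.00383). Abca12, which supplies lipid to skin, and Abca14, Abca15, Abca16 and Abca17 did not pass, with differences of -0.03 (Abca17) to 0.12 (Abca15).

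Subfamily B also holds transporters of mitochondria, and these moved both ways. Abcb10, a mitochondrial inner-membrane protein needed for haemoglobin synthesis in red cell precursors, was at 7.04, 7.48, 7.88 and 7.56 on Lin+ arrays and at 6.24, 5.82, 5.85 and 5.66 on HSC-enriched arrays. The groups did not overlap, and the lowest Lin+ value was again that of replicate 1. Abcb10 fell 3.02-fold (5.89 ± 0.25 against 7.49 ± 0.34, adjusted p = 9.13e-05). Abcb6, linked to porphyrin transport, fell 1.76-fold, from 6.07 ± 0.27 to 5.25 ± 0.15 (adjusted p = 0.00171), with Lin+ replicate 1 at 5.75 and the others at 6.02 to 6.40. Abcb8, a further mitochondrial transporter gene, rose 1.73-fold, from 5.72 ± 0.17 to 6.52 ± 0.23 (adjusted p = 0.00164). Lin+ replicate 1 had the lowest Lin+ mean of every marker list but that of B cells, erythroid genes included. The part of erythroid transcripts was not tested. The bile salt pump gene Abcb11 (0.10), Abcb5 (-0.00) and the lysosomal peptide transporter gene Abcb9 (-0.01) were near background and did not pass.

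Among the multidrug resistance-associated proteins of subfamily C, Abcc1 rose. This gene encodes an exporter of glutathione conjugates and leukotriene C4. It was at 6.32, 6.58, 6.94 and 6.73 on Lin+ arrays and at 7.94, 7.93, 7.96 and 8.0 on HSC-enriched arrays, which lay close together and above all Lin+ arrays. The difference was 2.49-fold (7.96 ± 0.03 against 6.64 ± 0.26, adjusted p = 3.46e-05). Abcc5, an exporter of cyclic nucleotides, fell 1.57-fold, from 6.47 ± 0.15 to 5.81 ± 0.07 (adjusted p = 0.000920). Abcc4, which exports cyclic nucleotides and prostaglandins, did not pass, at 6.65 ± 0.20 against 6.46 ± 0.37.

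Abcc9 and Abcc10 passed with the least margin. Abcc9, a sulfonylurea receptor that forms potassium channels, rose by 0.54 near background (adjusted p = 0.0270), and its arrays overlapped. Its call was lost without Lin+ replicate 2 or 3 or HSC-enriched replicate 1 or 3 (adjusted p = 0.0752, 0.0691, 0.0727 and 0.0754), and with only HSC-enriched replicates 1 and 2 in the fit (0.40, adjusted p = 0.180). Abcc10 rose by 0.50 (adjusted p = 0.0235) from a Lin+ mean near background, 1.41-fold or 1.21-fold against the guide, and lost its call without Lin+ replicate 2 or HSC-enriched replicate 2 or 4 (adjusted p = 0.0658, 0.0702 and 0.0574), or without HSC-enriched replicates 3 and 4 (0.45, adjusted p = 0.0819). Abcc2 and Abcc3, exporters of conjugates in liver, Abcc6, Abcc8, the other sulfonylurea receptor gene, and Abcc12 did not pass, with differences of -0.34 (Abcc3) to -0.02 (Abcc2).

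In subfamily D, Abcd2 fell, and Abcd3 and Abcd4 did not pass. Abcd2, which imports very long-chain fatty acids into peroxisomes, was at 6.98, 7.64, 7.82 and 8.16 on Lin+ arrays and at 3.55, 3.90, 4.3 and 3.94 on HSC-enriched arrays. The groups were far apart, every HSC-enriched array lay under the guide, and replicate 3 was the highest of them. Abcd2 fell 13.2-fold (adjusted p = 2.03e-06), or 5.93-fold against the guide. Abcd3, the abundant peroxisomal relative, did not pass, at 6.91 ± 0.20 against 6.79 ± 0.21 (95% interval of the log2 difference -0.20 to 0.43). Neither did Abcd4, which works with Lmbrd1 to release cobalamin (vitamin B12) from lysosomes, with a difference of 0.29 (95% interval -0.05 to 0.62).

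No gene of subfamily F passed. The one with the smallest adjusted p, Abcf1, a translation factor, was at 8.32, 8.33, 7.84 and 7.92 on Lin+ arrays and at 8.55, 8.41, 8.27 and 8.26 on HSC-enriched arrays, which overlapped (0.27, 95% interval -0.04 to 0.59, adjusted p = 0.207). Abcf2 and Abcf3 differed by 0.02 and -0.04. All 3 were above the guide in both groups. Their closest relative outside the symbol rule, Abce1, which splits ribosomes for recycling, rose 1.66-fold, from 8.22 ± 0.23 to 8.95 ± 0.12 (adjusted p = 0.00185). The other ABC proteins that the symbol rule leaves out, the peptide transporter genes Tap1 (0.07) and Tap2 (0.37) and the chloride channel gene Cftr (0.13, near background), did not pass.

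Genes that work with the transporters were read from lists chosen by function, to be set beside the 15.5% of all genes that rose and the 12.4% that fell. Few listed genes were near background in both groups, where 5.12% of all genes passed in either direction. Among all other genes 44.9% passed, so the shares over all genes are a low bar for most lists. Of 14 genes of haem and iron-sulfur cluster handling 10 fell and 0 rose (median -1.0), beside Abcb10 and Abcb6. The first haem synthesis enzyme of red cells, Alas2, fell 14.6-fold to a value near background (9.78-fold against the guide) and the haem-degrading enzyme gene Hmox1 11.3-fold. Alas2 is also in the erythroid marker list, whose level moved the same way. Of 15 glutathione and leukotriene genes, 6 were lower and 3 higher (median -0.16), beside the rise of Abcc1. Alox5, the first enzyme of leukotriene synthesis, fell 20.3-fold to a value near background (14.8-fold against the guide) and Mgst1 6.59-fold. The glutathione transferase gene Gsta4 rose 3.49-fold from a value near background (3.2-fold against the guide) and Gstt1 2.36-fold.

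Ribosome and amino acid stress partners of Abce1 and the F proteins rose in 7 of 8 cases and fell in 0 (median 0.43), led by Impact (1.86 on the log2 scale) and Eif2ak4 (1.0 on the log2 scale), which encodes the kinase Gcn2. Their number depended on the arrays and the fit. Only 3 genes rose without Lin+ replicate 3, without HSC-enriched replicate 2 or without HSC-enriched replicates 3 and 4. In separate alternatives, 4 rose without Lin+ replicate 4, with arrays centred on their medians, or with the replicate number as a block. Among 7 cobalamin genes 3 rose and 2 fell (median 0.27). The processing gene Mmachc rose 2.69-fold and Mtr, methionine synthase, 1.44-fold, while the carrier gene Tcn2 and Lmbrd1, the partner of Abcd4, fell by 1.68 and 0.65 on the log2 scale. Of 9 genes of sphingolipid and phospholipid handling 2 rose and 4 fell (median -0.33). Spns2, an exporter of sphingosine-1-phosphate, rose 7.63-fold, and Sgpl1, which degrades that lipid, and Lpcat1 fell 2.59-fold and 2.06-fold. S1pr1, its receptor gene, rose by 0.60 (adjusted p = 0.0436), a call lost when any array but Lin+ replicate 1 or HSC-enriched replicate 1 was left out (adjusted p = 0.0781 to 0.117).

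Of 12 cholesterol genes, which work beside Abca1, Abcg1 and Abcg4, 1 rose (8.33%) and 2 fell (16.7%), with a median of -0.13, so the share that rose was below that of all genes. Srebf2, the master regulator of sterol synthesis, rose 1.79-fold, and Mylip and Npc2 fell by 0.80 and 0.59 on the log2 scale. Without HSC-enriched replicates 3 and 4, Npc2 did not pass (-0.34, adjusted p = 0.0911), and without Lin+ replicate 2 the list had 2 genes that rose. Of 11 regulators of drug efflux genes 3 rose and 2 fell (median 0.09). Ahr, the dioxin receptor, rose 2.10-fold and Foxo3 1.40-fold, whereas Pparg and Nfe2l2 fell by 1.03 and 0.38. The HSC-enriched mean of Pparg was near background, and its fold was 2.04, or 1.41 against the guide. The differences kept their direction with any array left out (-1.25 to -0.86 for Pparg and -0.44 to -0.32 for Nfe2l2), but the calls did not all hold: Pparg did not pass without HSC-enriched replicate 2 (adjusted p = 0.0502) or replicates 3 and 4 (0.110), and Nfe2l2 without Lin+ replicate 3 or HSC-enriched replicate 1, 2 or 3 (0.0668, 0.0551, 0.0714 and 0.0595).

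Of 10 peroxisomal genes 1 rose (10%) and 2 fell (20%), with a median of 0.10, beside the large fall of Abcd2. Pex3, needed for peroxisome assembly, rose by 0.59, and Acot8 and Scp2 fell by 0.64 and 0.62. Pex3 did not pass without Lin+ replicate 1 or 3 or HSC-enriched replicate 1 or 2 (adjusted p = 0.0784, 0.0821, 0.0808 and 0.0839), nor Scp2 without Lin+ replicate 2 or 4 or HSC-enriched replicate 1 or 3 (0.0553, 0.0548, 0.0544 and 0.0524). Peptide loading partners of Tap1 and Tap2 rose in 3 of 8 cases and fell in 0 (median 0.28), led by the peptide-trimming enzyme gene Erap1 (2.05-fold) and the chaperone gene Canx (1.39-fold). Only 1 of them rose without HSC-enriched replicates 3 and 4. The channel genes Kcnj8 (0.11, near background) and Kcnj11 (0.08), whose products assemble with sulfonylurea receptors, did not pass.

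**Figure D4:**
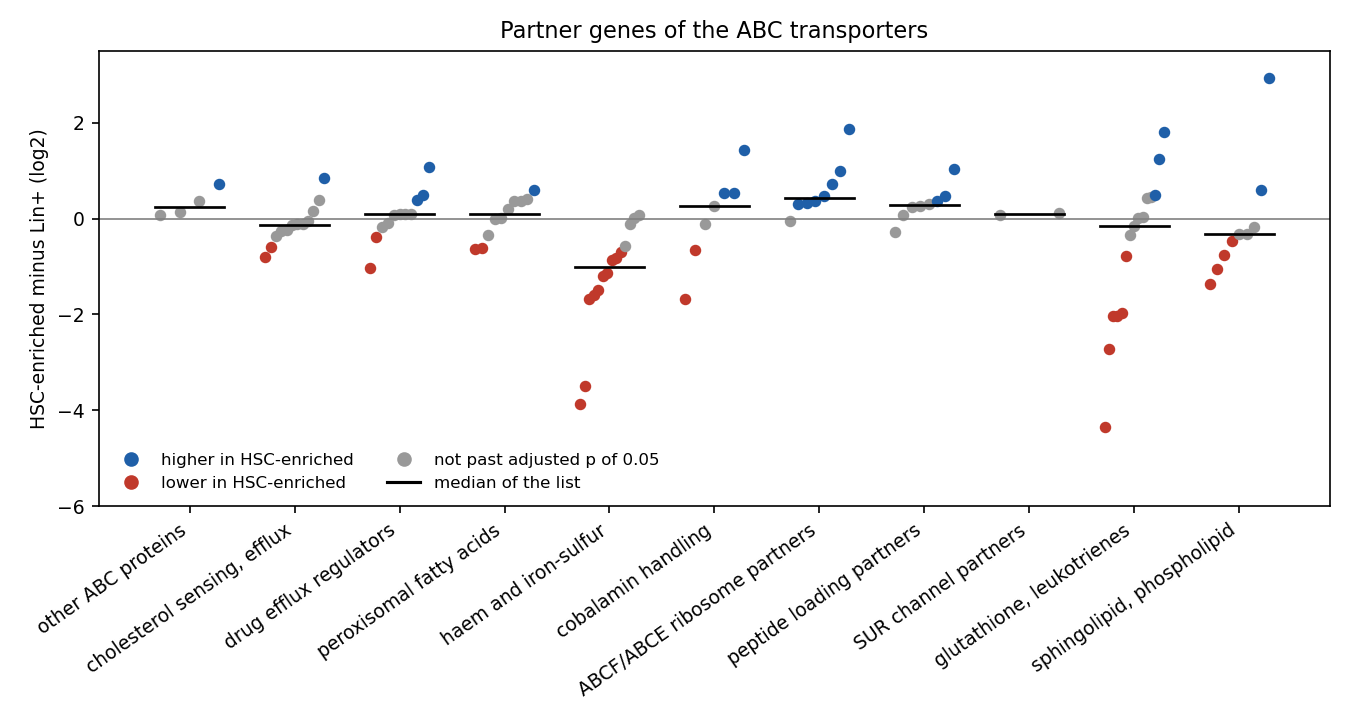
Difference between HSC-enriched and Lin+ cells on the log2 scale for each measured gene of the 11 partner lists, 1 point per gene, with the list's median as a black line. Haem and iron-sulfur genes lie mostly below 0 (median -1.0) and partners of the F and E proteins mostly above 0 (median 0.43), while the glutathione, cobalamin and sphingolipid lists hold genes that passed on both sides.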

How the data were processed

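The arrays were 1-colour Affymetrix MouseGene ST arrays, hybridised with Ovation Pico-amplified RNA, per the labels' protocols. Those name array versions 1.0st and 2.0st without saying which sample used which. The deposited table holds log2 levels per probe set, for which the submitters' processing notes name RMA and Partek without versions; the log2 scale was read from the values (1.66 to 13.1). The sources used here do not give the genome build, the probe set definition or any pooling. Of 24973 probe sets, 24015 had 1 symbol and 958 none; for 23922 the current symbol came from a RefSeq table (GRCm38.p6), matched on Entrez ID. Where probe sets shared a symbol, the brightest was used, which left out 4. Every ABC gene had 1 probe set.

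Differences are HSC-enriched minus Lin+ means, fitted with limma 3.58.1 (lmFit, eBayes, R 4.3.3) over all 24011 genes without covariates or a filter, with Benjamini-Hochberg adjustment over all of them. Standard errors, intervals and adjusted p-values are limma's, and SDs are over 4 arrays, whose number limits the precision. The fit was checked on simulated data. Array medians ran from 5.22 to 5.33, and correlations across genes were 0.978 to 0.986 within and 0.893 to 0.922 between groups. Every ABC gene is named, with values on each array for those past 2-fold, for Abcg2, Abcb1a and Abcb1b and, in a subfamily with none past 2-fold, for the gene with the smallest adjusted p. Of each partner list, up to 2 passing genes per direction are named by rule; the other named partner genes were added after their values were seen, as were Abcb4's array values and the neighbours. Members, lists and alternatives were chosen with earlier results of these data known. The alternatives were other scalings, low-value filters, probe set means, other variance estimates, array weights, a replicate block and arrays left out. Listed genes without a value were not analysed here. Plots used matplotlib 3.10.9 under Python 3.11.15.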

Additional observations from a re-analysis of the deposited data

Results flagged for a closer look

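In 94 groups of 4 arrays (47 genes in 2 groups), 3 had an array far from the others by Dixon's criterion (the gap to the nearest array over the range of the group); chance gives about 1 in 20 groups. Abca4 was at 4.56 on Lin+ replicate 1 against 4.13 to 4.17 on the other Lin+ arrays, all near background. Abcc2 was at 4.33 on HSC-enriched replicate 1 against 4.66 to 4.71 on the others, also near background. Abcg1 was at 7.41 on Lin+ replicate 4 against 7.66 to 7.68 on the other Lin+ arrays. Abcg1 kept its call when any single array was left out, with differences of 0.44 to 0.67.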

How the results depend on the processing

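Across 17 alternatives, 19 of the 21 called ABC genes kept their call and direction wherever they were tested; the exceptions were Abcc9 and Abcc10. None of the 26 others passed. With single arrays left out, 9 to 11 ABC genes rose and 10 fell in each case, 4 to 6 and 5 to 6 of them by 2-fold, and the median difference was -0.01 to 0.05. The filter at the median of all values, which a gene passed on any 4 arrays, kept 26 ABC genes. Of these, 7 rose (26.9%, beside 27.8% of all genes in that fit) and 9 fell (34.6%, beside 21.4%). At the 40th percentile 29 ABC genes were kept, of which 31.0% rose (beside 24.8%) and 31.0% fell (beside 19.1%). Both filters kept some genes only through the group where they were high, such as Abca13, Abcd2 and Abca9. Abca5 was kept in that way at the 40th percentile. These shares therefore cannot show an excess of called ABC genes. Replicate numbers recur in both groups, but same-numbered arrays did not deviate together (r across genes -0.15 to 0.06). With the replicate number as a block, 11 ABC genes rose and 10 fell, and their calls did not change; Nfe2l2, Pex3, Pparg and S1pr1 lost theirs (adjusted p = 0.0602, 0.0522, 0.0580 and 0.0761). Nfe2l2 also lost it with quantile normalization (0.0919), Pex3 with centring (0.0563), Scp2 without HSC-enriched replicates 3 and 4 (0.0715) and Canx likewise (0.0570).

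Differences that changed sign were all small and not called. Leaving out single arrays gave ranges of -0.041 to 0.14 for Abca1, -0.045 to 0.076 for Abca12, -0.021 to 0.11 for Abca16, -0.096 to 0.021 for Abca17, -0.013 to 0.063 for Abca8a, -0.027 to 0.028 for Abcb5, -0.060 to 0.075 for Abcb9, -0.054 to 0.075 for Abcc2, -0.22 to 0.0044 for Abcc6, -0.16 to 0.00054 for Abcc8, -0.084 to 0.12 for Abcf2 and -0.13 to 0.088 for Abcf3. Without HSC-enriched replicates 3 and 4, Abca14 was at -0.011, Abcb11 at -0.0023, Abcb9 at 0.14 and Abcf3 at 0.16. Abcb5 was at 0.020 with quantile normalization, and Abcc2 and Abcf2 at 0.0037 and -0.011 with array weights. The cause was not tested. The array versions and signal over background, for which no detection calls were used, limit what low values can show.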
